A study of Mus musculus with 4 samples.

Results

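The ligand-gated neurotransmitter receptor subunit genes of the mouse are described here in sorted Ret-EGFP-positive cells of the neonatal dorsal root ganglion. They were taken by symbol alone (Gabr, Glra and Glrb, Gria, Grid, Grik and Grin, Chrn, and Htr3a with Htr3b), which gave 60 of the 41388 genes listed in the files. By transmitter they fall into 19 GABA, 5 glycine, 18 glutamate, 16 acetylcholine and 2 serotonin receptor genes. The glutamate genes divide into 4 AMPA, 5 kainate, 7 NMDA and 2 delta subunits, and the acetylcholine genes into 11 neuronal and 5 muscle-type subunits.

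The cells came from ganglia of the lower thoracic to upper sacral levels of Ret-EGFP mice on a C57BL/6 background and were sorted for EGFP. Heterozygotes with EGFP knocked into the Ret locus are named in the design text, which would leave every library with 1 intact Ret allele, while the genotype label gives a transgene, Tg(Ret-EGFP). If EGFP sits in the Ret locus, it marks any cell that uses that locus. Which of these descriptions holds is not settled here. The ganglia of 1 animal were pooled for each library. Each library carries the stage label of postnatal day 2. Female A (40 ganglia) and male A (20 ganglia) are described as pools from a P2 mouse, and male B and male C (20 ganglia each) as pools from an embryo. These descriptions divide the libraries into a P2-mouse pair and an embryo pair, and the sex label sets female A against the 3 males. What the pool descriptions stand for is not stated, and age, preparation and colony cannot be told apart.

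Ligand-gated receptors are channels that open when a transmitter binds. The GABA, glycine, acetylcholine and serotonin receptors are rings of related subunits and the ionotropic glutamate receptors a separate family of subunit assemblies, so the mixture of subunits a cell makes sets which channels it can build. On sensory neurons these receptors sit at the cell body and at the central terminals in the spinal cord. There GABA depolarises the terminal, because the cotransporter encoded by Slc12a2 keeps chloride high in these cells, and kainate receptors modulate transmitter release.

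The libraries held between 17388493 and 28066448 gene counts. Libraries with the same pool description resembled each other most, with correlations of log2 CPM (counts scaled to the library's total) over 13690 genes of 0.989 within the P2-mouse pair and 0.983 within the embryo pair, against 0.933 to 0.942 for the other library pairs. The genes are not independent replicates. The lists of marker genes moved with the pool description too. Calls on them are from the edgeR fit between the pairs given below, at an adjusted p under 0.05. That fit called 22.3% of all genes tested higher in the P2-mouse pair and 20% lower. The 8 sensory neuron markers summed to 7072 and 6692 CPM in the P2-mouse pair, against 12303 and 11540 CPM in the embryo pair, and 6 of the 8 were called lower and 1 higher in the P2-mouse pair. The 13 Schwann cell markers summed to 5347 and 8463 CPM in the P2-mouse pair, against 3140 and 3200 CPM in the embryo pair, and 12 of 13 were called higher. The 10 fibroblast markers summed to 1535 and 1688 CPM against 327 and 352 CPM, with 7 of 9 tested called higher. The 7 satellite glia markers summed to 1022 and 1108 CPM in the P2-mouse pair, against 559 and 915 CPM in the embryo pair, with 4 called higher and 2 lower. Markers of spinal cord neurons summed to 2.99 and 3.51 CPM in the P2-mouse pair and 6.40 and 5.10 CPM in the embryo pair, with Gad2, Slc32a1, Slc6a5, Mnx1, Chat and Olig2 at 0 counts in every library. The 8 endothelial and mural markers summed to 103 and 101 CPM in the P2-mouse pair, against 98.2 and 90.9 CPM in the embryo pair, with 4 of 7 tested called higher. The macrophage and sympathetic neuron markers summed to at most 7.36 and 1.71 CPM in any library. The part of these markers in the receptor results was not tested, and in RNA from sorted pools fewer cells of a type and less RNA per cell cannot be told apart.

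The sequence around the start is given for the neuronal acetylcholine receptor genes Chrna3, Chrnb4 and Chrna4, which were called lower in the P2-mouse pair, and for the glutamate receptor genes Grik2 and Gria2, which were called higher in it. These calls are from the fit without offsets for GC content and transcript length. Gria2 was not called with those offsets, and Chrnb4 was not called with sex as a term. Chrna3 and Chrnb4 are neighbours on chromosome 9. The promoters run from 250 bases before to 50 bases after the annotated start and are taken from RefSeq on GRCm38.p6, each on the minus strand, at chr9:55026513-55026812 for Chrna3, chr9:55048495-55048794 for Chrnb4, chr2:181039128-181039427 for Chrna4, chr10:49788705-49789004 for Grik2 and chr3:80802786-80803085 for Gria2. Capitals mark the GC box GGGCGG, the binding motif of Sp-family factors, on either strand.
Chrna3: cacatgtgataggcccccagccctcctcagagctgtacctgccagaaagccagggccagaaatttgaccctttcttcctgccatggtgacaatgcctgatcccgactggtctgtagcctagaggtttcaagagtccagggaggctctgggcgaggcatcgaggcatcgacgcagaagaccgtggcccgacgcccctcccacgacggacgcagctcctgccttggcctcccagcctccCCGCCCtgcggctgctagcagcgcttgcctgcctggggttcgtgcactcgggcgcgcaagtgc
Chrnb4: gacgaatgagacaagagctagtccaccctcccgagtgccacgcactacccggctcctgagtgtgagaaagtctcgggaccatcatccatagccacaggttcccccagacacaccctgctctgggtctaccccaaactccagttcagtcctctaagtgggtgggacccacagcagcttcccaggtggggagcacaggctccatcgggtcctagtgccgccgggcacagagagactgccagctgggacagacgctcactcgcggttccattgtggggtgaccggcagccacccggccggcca
Chrna4: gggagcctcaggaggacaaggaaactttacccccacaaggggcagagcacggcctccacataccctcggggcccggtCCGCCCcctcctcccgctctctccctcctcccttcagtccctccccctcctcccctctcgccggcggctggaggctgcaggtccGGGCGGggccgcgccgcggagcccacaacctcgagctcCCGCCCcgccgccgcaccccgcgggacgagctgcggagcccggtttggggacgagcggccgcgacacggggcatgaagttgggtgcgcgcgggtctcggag
Grik2: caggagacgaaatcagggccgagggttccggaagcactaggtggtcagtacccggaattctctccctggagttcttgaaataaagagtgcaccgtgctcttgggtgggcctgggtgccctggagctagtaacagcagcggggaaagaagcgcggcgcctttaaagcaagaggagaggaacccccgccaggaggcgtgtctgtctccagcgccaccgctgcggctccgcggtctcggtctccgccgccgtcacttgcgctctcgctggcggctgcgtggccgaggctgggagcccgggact
Gria2: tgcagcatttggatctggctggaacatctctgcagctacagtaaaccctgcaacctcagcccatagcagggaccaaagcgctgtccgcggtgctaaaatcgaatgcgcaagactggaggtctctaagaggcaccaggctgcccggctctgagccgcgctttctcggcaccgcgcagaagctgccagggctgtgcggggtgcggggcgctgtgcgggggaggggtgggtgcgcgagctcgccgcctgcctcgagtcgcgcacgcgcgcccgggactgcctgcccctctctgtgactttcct
Chrna3 held 1 GC box and Chrna4 held 3, while these letters were not in the windows of Chrnb4, Grik2 and Gria2. Over the receptor genes, 42 of 60 had a promoter in the table, and 21 of their 47 promoters (44.7%) held a GC box, against 35.7% of all 32851 promoters in the table. The AP-1 motif TGANTCA was in 2 of the 47 promoters, those of Chrna1 and Grin3b, against 7.81% of all promoters, and the cAMP response element TGACGTCA was in 0 of 47, against 1.79%. Both strands were searched, and no 2 matches overlap in the windows given above. A match is a description of the letters and not a shown binding site.

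**Figure D1:**
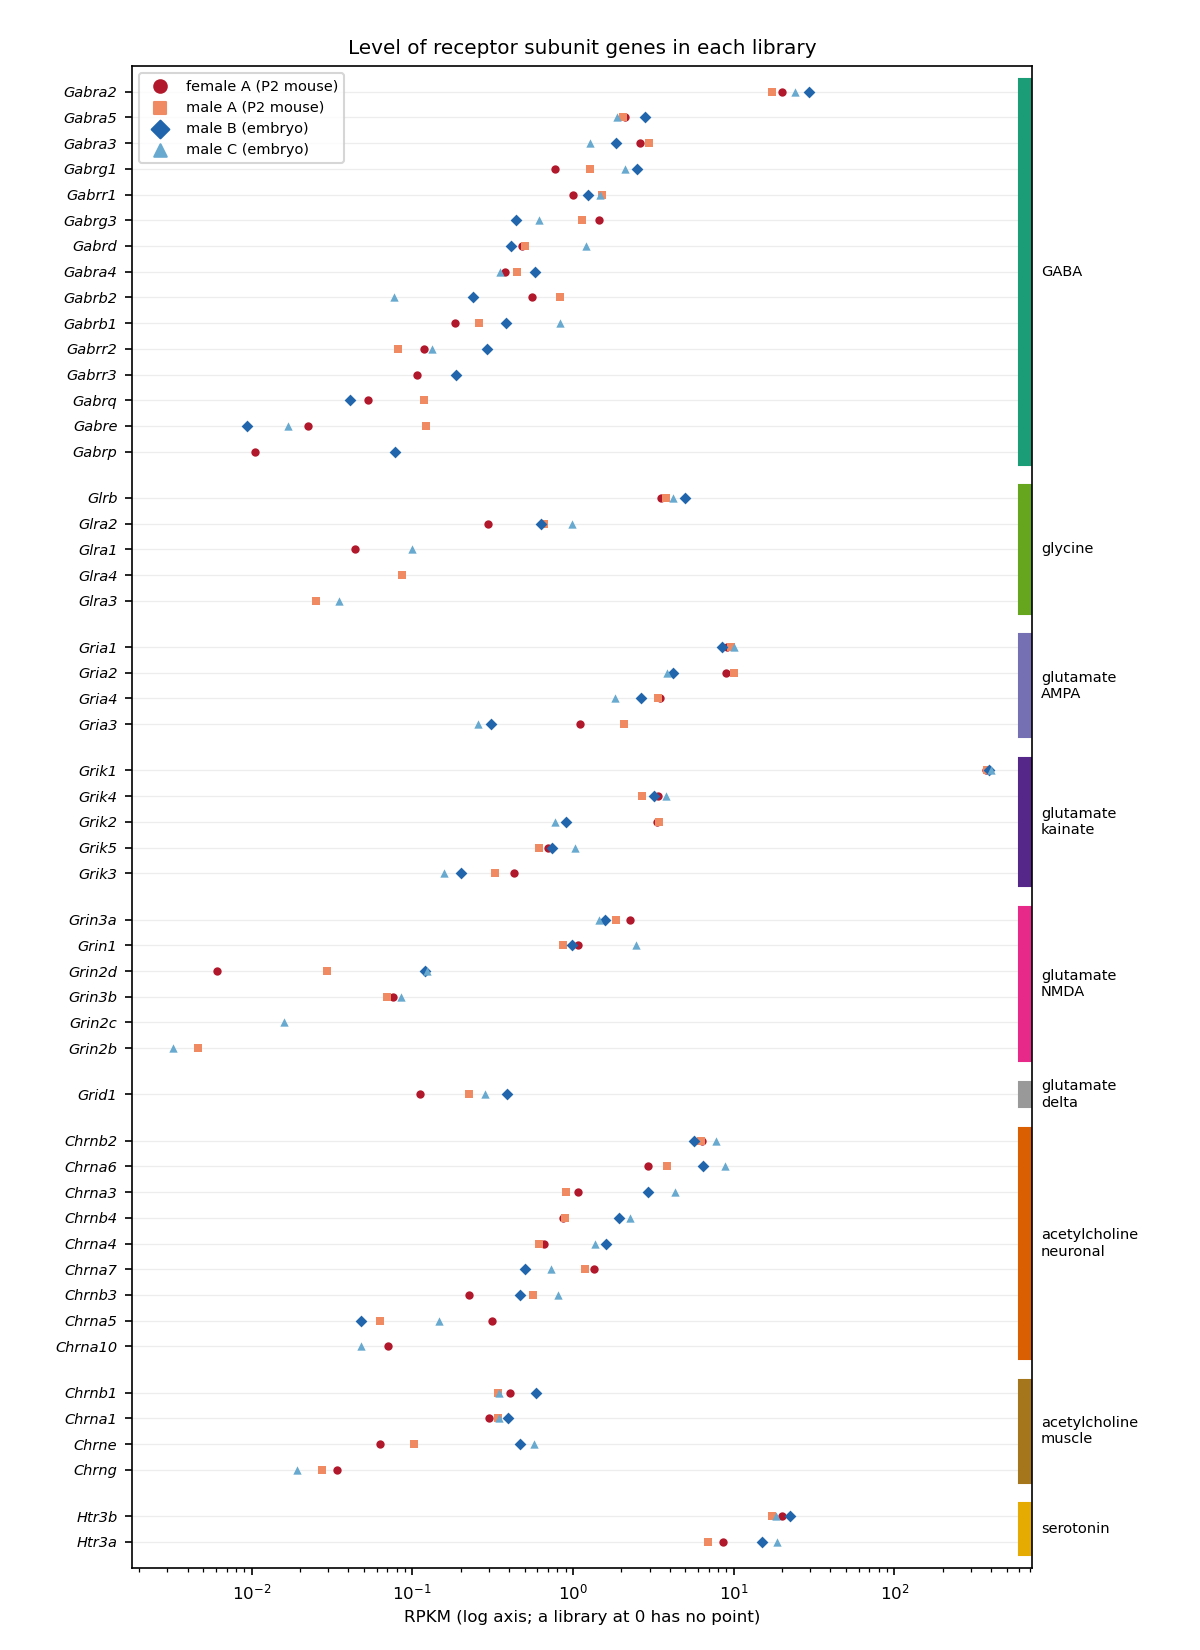
Level of receptor subunit genes in each library, as deposited RPKM (counts scaled to library size and exon length, log axis), with genes grouped by transmitter and 1 point per library; a library at 0 has no point. Grik1 stands alone at 373 to 399.8 RPKM in all 4 libraries.

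The receptor repertoire was led by the kainate receptor gene Grik1, followed at a distance by a GABA receptor set, the serotonin receptor pair and the AMPA receptor genes. Levels between genes are given as RPKM, that is CPM divided by the exon length in kilobases, so that long and short genes can be compared. By this measure 17 of the 60 genes stood at 1 RPKM or more in every library, 31 were under 1 RPKM in every library and 12 lay on both sides. In 5 genes (Chrna2, Chrna9, Chrnd, Gabra6 and Grin2a) no library held a count. A count of 0 allows up to 3 counts, which for these genes is 0.0202 to 0.0693 RPKM, and like all such limits it covers counting error only. Glra4, Grin2b and Grin2c had at most 3 counts in any library.

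Grik1 encodes a kainate receptor subunit that is known as the leading one of small sensory neurons. It stood at 373 RPKM in female A and 377 RPKM in male A, against 385 RPKM in male B and 399.8 RPKM in male C. Its mean of 384 ± 11.7 RPKM (SD, n = 4 libraries) placed it 105th among all genes of the files, and it ranked first of the 60 receptor genes in every library. Grik1 alone held 69.3% and 69.8% of the summed RPKM of the 60 genes in female A and male A, and 70.7% and 71.1% in male B and male C.

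Other abundant receptor genes were Gabra2 (22.7 ± 5.24 RPKM), Htr3b (19.5 ± 2.24 RPKM), Htr3a (12.2 ± 5.48 RPKM), Gria1 (9.32 ± 0.689 RPKM), Gria2 (6.79 ± 3.24 RPKM) and Chrnb2 (6.52 ± 0.875 RPKM), each as the mean and SD over 4 libraries. Their order was not the same in both pairs. Gria2 had rank 7 in female A and rank 6 in male A, but rank 12 in male B and rank 13 in male C. Much of the order of these means is unresolved. Gabra2 and Htr3b differed in mean by less than the larger of their SDs over libraries, as did Htr3a and Gria1, Htr3a and Gria2, Gria1 and Gria2, and Gria2 and Chrnb2. Of the neighbours in this order, Htr3b and Htr3a differed by more.

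Summed by transmitter, glutamate receptor genes held 75.7% and 76.4% of the receptor RPKM in female A and male A and 75.2% and 75.9% in male B and male C. GABA receptor genes held 15.6% and 15.4% in the P2-mouse pair, against 13.1% and 11.7% in the embryo pair. Serotonin receptor genes held 5.31% and 4.45%, against 6.86% and 6.59%, and acetylcholine receptor genes 2.72% and 2.80%, against 3.87% and 4.91%. Glycine receptor genes held 0.717% and 0.846%, against 1.028% and 0.946%. The ranges of the 2 pairs did not overlap for GABA, serotonin, acetylcholine and glycine, and they overlapped for glutamate. An exact permutation test of 2 libraries against 2 cannot give a two-sided p under 0.333. With Grik1 left out, GABA receptor genes held the most, 50.6% and 51.1% in the P2-mouse pair and 44.7% and 40.5% in the embryo pair, and acetylcholine receptor genes 8.84% and 9.27% against 13.2% and 17.03%. The summed level of the 59 other genes was 165.6 and 163.5 RPKM in the P2-mouse pair and 159.4 and 162.1 RPKM in the embryo pair.

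The P2-mouse pair was set against the embryo pair with the edgeR quasi-likelihood F test over all genes, and a gene was called at a Benjamini-Hochberg adjusted p under 0.05. Of the 41 receptor genes that passed the count filter, 9 were called higher in the P2-mouse pair and 9 lower. Among all 15568 genes tested 22.3% were called higher and 20% lower, so the receptor genes as a group were called about as often as genes at large. Their median log2 fold change was -0.29, against 0.02 over all genes tested. The 19 other receptor genes were too low to test. The genes called higher were glutamate and GABA receptor genes, among them Gria3, Gabrb2, Grik2, Gabrg3, Gria2 and Gabra3. Those called lower included 4 neuronal acetylcholine receptor genes (Chrna3, Chrnb4, Chrna4 and Chrna6), Chrne, Htr3a, Gabra2, Gabrg1 and Grin2d.

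The calls higher in the P2-mouse pair sat mostly on long transcripts of low GC content. The 9 genes called higher had a median exon length of 6956 bases and a median GC content of 42.0%, and the 9 called lower 3123 bases and 51.5%. All genes called higher had medians of 5298 bases and 44.2%, and all genes called lower 2878.5 bases and 53.0%. Across the 41 receptor genes, which are not independent, Spearman's rho of the fold change was -0.40 with GC content and 0.53 with exon length. With the length of the longest annotated transcript it was 0.31. When offsets for GC content and transcript length were fitted per library, 2 receptor genes were called higher and 13 lower, against 12.8% and 20.3% of the 15474 genes tested. The share of higher calls among all called genes was 38.6% with the offsets and 52.7% without them. With the offsets, rho across the receptor genes was -0.15 with GC content, 0.19 with transcript length and 0.49 with exon length. Over all genes tested it was then -0.03, 0.02 and 0.05, so a trend with exon length remained among the receptor genes. All 9 genes called lower stayed lower with the offsets, and of the 9 called higher Grik2 and Gria3 stayed. Since the offsets also remove change that itself follows length or GC content across all genes, both values are given for the genes that moved.

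**Figure D2:**
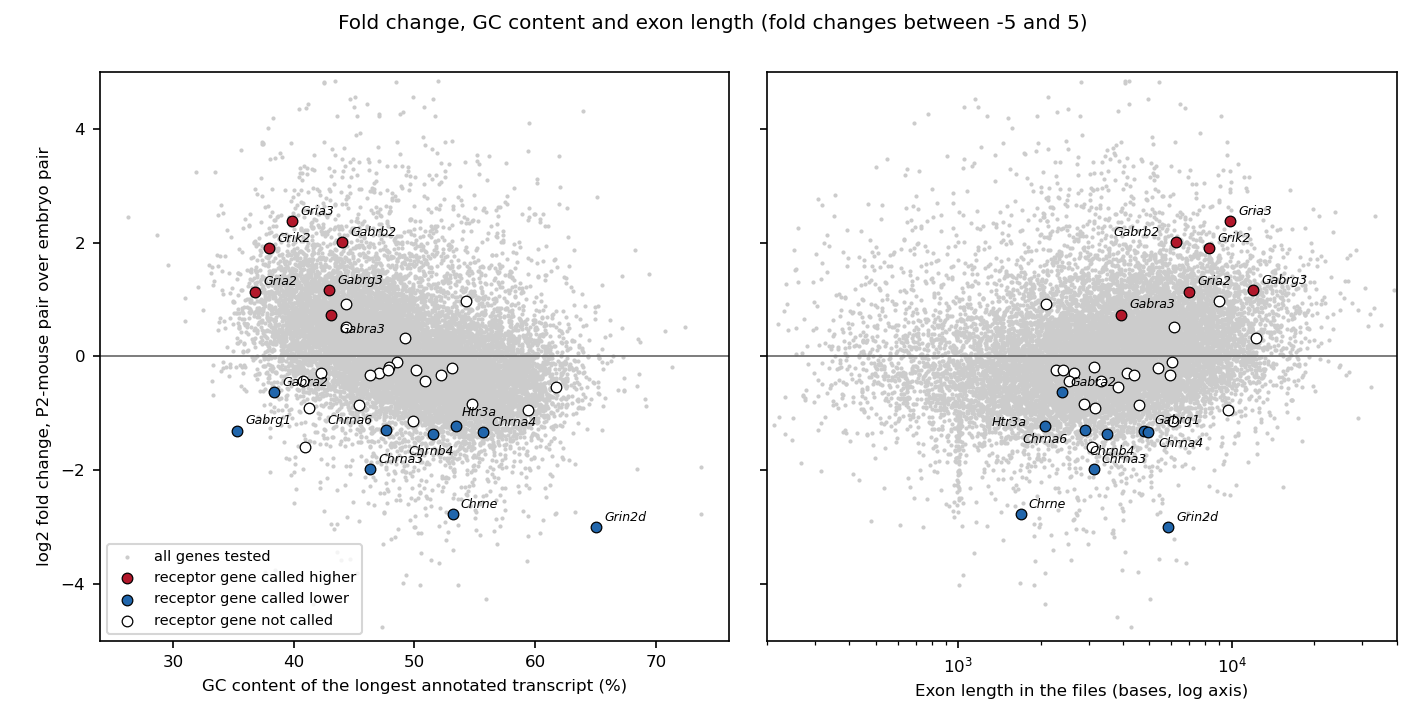
Log2 fold change between the P2-mouse pair and the embryo pair against the GC content of the longest annotated transcript and the exon length, for all genes tested (grey) and receptor genes (coloured by call). Receptor genes called higher lie towards low GC content and long exons, with medians over all 9 of 42.0% and 6956 bases, and the 9 called lower have medians of 51.5% and 3123 bases.

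Several neuronal acetylcholine receptor genes fell, in both fits. Of 7 tested, 4 were called lower and 0 higher in each fit, against 20% of all genes tested called lower without and 20.3% with the offsets. The 7 genes had a median log2 fold change of -1.30 without and -1.24 with the offsets, against 0.02 and -0.07 over all genes tested. Chrna3, an alpha subunit of the autonomic ganglion receptor, stood at 1.07 RPKM in female A and 0.902 RPKM in male A, against 2.94 and 4.31 RPKM in male B and male C. The pairs did not overlap, and the log2 fold change was -1.98 (SE 0.274, edgeR adjusted p = 0.00108), or -2.29 with the offsets. Chrnb4, its usual beta partner and its neighbour on chromosome 9, stood at 0.869 and 0.891 RPKM in the P2-mouse pair, against 1.92 and 2.27 RPKM in the embryo pair (log2 fold change -1.37, SE 0.253, edgeR adjusted p = 0.0040). With sex as a term in the fit its call was lost, at a log2 fold change of -1.34 (SE 0.360, edgeR adjusted p = 0.0529). Both libraries of the P2-mouse pair were lower than both of the embryo pair for each gene.

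Chrna6, an alpha subunit known from dopaminergic and sensory neurons, stood at 2.92 and 3.86 RPKM in the P2-mouse pair, against 6.44 and 8.89 RPKM in the embryo pair. Its log2 fold change was -1.30 (SE 0.231, edgeR adjusted p = 0.00331) and -1.38 with the offsets. With sex as a term its call was lost too, at -1.09 (SE 0.304, edgeR adjusted p = 0.0576). Chrna4, the alpha subunit of the main nicotinic receptor of the brain, stood at 0.657 and 0.617 RPKM in the P2-mouse pair, against 1.61 and 1.37 RPKM in the embryo pair (log2 fold change -1.33, SE 0.252, edgeR adjusted p = 0.00435). With sex as a term its call was kept close to the threshold, at -1.37 (SE 0.359). With the offsets and sex together the call was lost, at -1.13 (SE 0.385). The beta subunit gene Chrnb2 was the most abundant neuronal acetylcholine receptor gene in the P2-mouse pair, whereas Chrna6 stood above it in both embryo libraries. Chrnb2 did not pass the test. It stood at 6.37 and 6.27 RPKM in the P2-mouse pair, against 5.69 and 7.76 RPKM in the embryo pair, so the pairs overlapped (log2 fold change -0.20, SE 0.169, edgeR adjusted p = 0.364). Its exons share 16.3% of their bases with Adar on the opposite strand, and since no strand setting is given, reads of the 2 genes may be mixed.

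The make-up of the neuronal acetylcholine receptor RNA was given by the share of each gene. Chrnb2 made up 46.0% and 43.7% of the summed RPKM of the 11 genes in the P2-mouse pair, against 29.0% and 29.5% in the embryo pair. The ratio of Chrnb2 to Chrnb4 was 7.33 and 7.04 in the P2-mouse pair, against 2.96 and 3.42 in the embryo pair. These shares and this ratio carry the limit given above, that reads of Chrnb2 and Adar may be mixed. Chrna7, which forms receptors of a single subunit type, stood at 1.35 and 1.18 RPKM against 0.506 and 0.730 RPKM. Its groups did not overlap, but it did not pass the test (log2 fold change 0.92, SE 0.393, edgeR adjusted p = 0.0981). Chrnb3, next to Chrna6 on chromosome 8, stood at 0.225 and 0.564 RPKM against 0.471 and 0.805 RPKM. Chrna5, the accessory subunit gene beside Chrna3, stood at 0.312 RPKM in female A, 0.0630 RPKM in male A, 0.0483 RPKM in male B and 0.147 RPKM in male C and was too low to test.

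Among the muscle-type acetylcholine receptor genes, Chrne, the subunit of the mature neuromuscular junction, was called lower on few counts. It had 3 counts in female A and 3 in male A, against 18 in male B and 24 in male C. The ratio of its summed counts, scaled to depth, was 0.149 (exact 95% interval 0.0519 to 0.353, counting error only), and the fit gave a log2 fold change of -2.78 (SE 0.656, edgeR adjusted p = 0.0115). Chrnb1 stood at 0.408 and 0.341 RPKM against 0.593 and 0.349 RPKM, and Chrna1 at 0.301 and 0.341 RPKM against 0.392 and 0.348 RPKM, with neither called. Chrng had at most 0.0342 RPKM, and Chrnd was at 0 counts. The 10 skeletal muscle markers summed to 10.2 and 10.2 CPM in the P2-mouse pair and 14.4 and 14.2 CPM in the embryo pair, with Tnni2 and Myod1 at 0 in every library, and their part in the value of Chrne was not tested.

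The serotonin receptor genes lie side by side on chromosome 9, and Htr3a was called lower while Htr3b was not called. Htr3a, whose product can form a channel alone, stood at 8.56 RPKM in female A and 6.88 RPKM in male A, against 14.98 RPKM in male B and 18.6 RPKM in male C. Both P2-mouse libraries were under both embryo libraries (log2 fold change -1.23, SE 0.177, edgeR adjusted p = 0.00126, and -0.87 with the offsets). Htr3b, whose product needs that of Htr3a to reach the cell surface, stood at 20.0 and 17.2 RPKM in the P2-mouse pair, against 22.4 and 18.4 RPKM in the embryo pair. These values overlapped, and Htr3b did not pass the test (log2 fold change -0.25, SE 0.146, edgeR adjusted p = 0.212). The ratio of Htr3b to Htr3a in RPKM was 2.34 and 2.50 in the P2-mouse pair, against 1.495 and 0.993 in the embryo pair, and the difference between the genes was not tested.

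**Figure D3:**
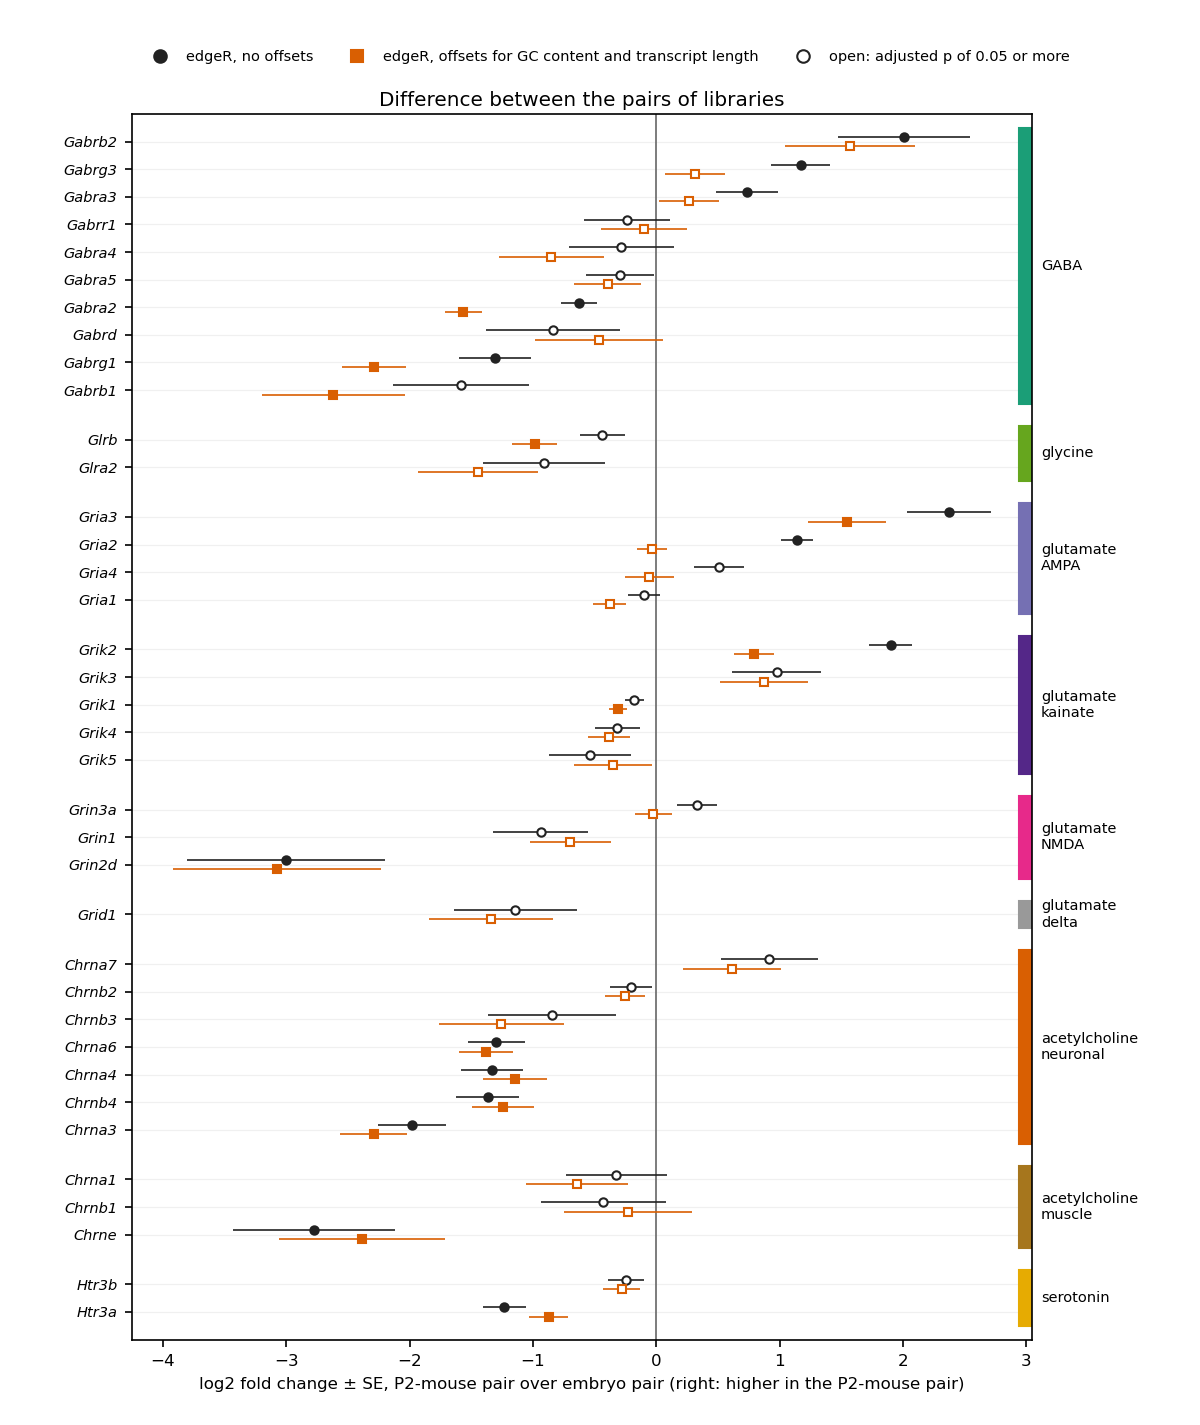
Log2 fold change of tested receptor genes between the P2-mouse pair and the embryo pair, without and with offsets for GC content and transcript length, with bars of 1 SE. The 4 called neuronal acetylcholine receptor genes lie between -1.98 and -1.30 in the fit without offsets, and Gria2 lies at 1.14 without and -0.034 with them.

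The alpha subunit genes of the GABA receptor were led by Gabra2 in every library. Gabra2 made up 63.8% and 58.3% of the summed alpha subunit RPKM in the P2-mouse pair and 74.9% and 73.9% in the embryo pair. Of 13 GABA receptor genes tested, 5 were called higher and 2 lower, against 22.3% and 20% of all genes tested. With the offsets 0 were called higher and 4 lower, against 12.8% and 20.3% of all genes.

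Gabra2, an alpha subunit of many synaptic receptors, stood at 20.1 and 17.3 RPKM in the P2-mouse pair, against 29.4 and 24.0 RPKM in the embryo pair. The pairs did not overlap (log2 fold change -0.63, SE 0.144, edgeR adjusted p = 0.0102), and the value was -1.57 with the offsets. The exon length of this gene in the files is 2392 bases, against 5852 bases for its longest annotated transcript, so its RPKM depends on which length is used.

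Other GABA receptor genes moved at lower levels. Gabrb2 stood at 0.553 and 0.829 RPKM in the P2-mouse pair, against 0.240 and 0.0772 RPKM in the embryo pair, and Gabrg3 at 1.45 and 1.13 RPKM against 0.444 and 0.616 RPKM. Their log2 fold changes were 2.01 and 1.17 (edgeR adjusted p = 0.0190 and 0.00612), and 1.57 and 0.31 with the offsets, where neither was called. Gabra3, on the X chromosome, stood at 2.62 and 2.99 RPKM against 1.84 and 1.27 RPKM, close to the threshold at a log2 fold change of 0.73 (edgeR adjusted p = 0.0474). With the offsets its log2 fold change was 0.27, and it was not called (edgeR adjusted p = 0.436). Gabrg1 stood at 0.769 and 1.28 RPKM in the P2-mouse pair, against 2.52 and 2.11 RPKM in the embryo pair, and was lower in both fits, at log2 fold changes of -1.31 and -2.29 (edgeR adjusted p = 0.00871 and 0.000573). Gabra5 stood at 2.10 and 2.04 RPKM against 2.81 and 1.88 RPKM, with overlapping groups.

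Many GABA receptor genes lie in clusters, and differences between genes of 1 cluster were not tested. On chromosome 5 the log2 fold changes of all 4 receptor genes were negative, at -1.31 for Gabrg1, -0.63 for Gabra2, -0.28 for Gabra4 and -1.59 for Gabrb1, and Gabrg1 and Gabra2 were called lower. Their neighbours there, Gabra4 (0.380 and 0.446 RPKM against 0.578 and 0.351 RPKM) and Gabrb1 (0.185 and 0.261 RPKM against 0.386 and 0.832 RPKM), did not pass the test (edgeR adjusted p = 0.626 and 0.0514), though Gabrb1 was called lower with the offsets (log2 fold change -2.62, edgeR adjusted p = 0.010). For Gabrb1 those offsets took the longest annotated transcript, of 13737 bases, while its exon length in the files is 3089 bases. With the offsets and sex together Gabrb1 was not called (-2.34, SE 0.814). On chromosome 7 Gabrg3 was called higher, and Gabra5 was not called (log2 fold change -0.29, edgeR adjusted p = 0.425). On the X chromosome Gabra3 lies near Gabre (at most 0.121 RPKM) and Gabrq (at most 0.118 RPKM). In all, 29 of the 60 genes lay in 11 groups of receptor genes with gaps of under 1000 kilobases.

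Of the remaining GABA receptor genes, the rho subunit gene Gabrr1 stood at 0.998 and 1.51 RPKM against 1.24 and 1.48 RPKM, and the extrasynaptic subunit gene Gabrd at 0.483 and 0.500 RPKM against 0.414 and 1.20 RPKM, with overlapping groups. Gabrr2, beside Gabrr1 on chromosome 4, reached at most 0.293 RPKM. The glycine receptor genes were led by the beta subunit gene Glrb, whose product anchors the receptor at synapses. Glrb stood at 3.52 and 3.81 RPKM in the P2-mouse pair, against 4.97 and 4.20 RPKM in the embryo pair. It lies beside Gria2 on chromosome 3. It was not called (log2 fold change -0.44, SE 0.184, edgeR adjusted p = 0.0926) and was called lower with the offsets (log2 fold change -0.99, edgeR adjusted p = 0.00458). Glra2, the ligand-binding subunit of immature neurons, stood at 0.294 and 0.657 RPKM against 0.630 and 0.982 RPKM, and the other ligand-binding subunit genes Glra1, Glra3 and Glra4 reached at most 0.0998 RPKM.

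Among the AMPA receptor genes, Gria1 and Gria2 led in every library, and the pairs did not overlap in the ratio of Gria2 to Gria1. Gria2, whose edited product makes the channel impermeable to calcium, stood at 9.00 RPKM in female A and 10.1 RPKM in male A, against 4.18 RPKM in male B and 3.84 RPKM in male C. Its log2 fold change was 1.14 (SE 0.132, edgeR adjusted p = 0.000534) but -0.034 with the offsets (SE 0.119, edgeR adjusted p = 0.851) and 0.01 with the offsets and sex together (SE 0.166, edgeR adjusted p = 0.969). Gria1 stood at 9.09 and 9.65 RPKM against 8.48 and 10.1 RPKM, with overlapping groups and no call (log2 fold change -0.10, SE 0.131, edgeR adjusted p = 0.580). The ratio of Gria2 to Gria1 was 0.990 and 1.05 in the P2-mouse pair, against 0.493 and 0.382 in the embryo pair. It is a ratio of RPKM, to which the offsets were not applied. With the offsets Gria1 moved as well, to a log2 fold change of -0.38 without a call, against -0.034 for Gria2. The difference between the genes was not tested. Gria4 stood at 3.48 and 3.40 RPKM against 2.63 and 1.84 RPKM and was not called (log2 fold change 0.51, edgeR adjusted p = 0.0809).

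Gria3, the X-linked AMPA receptor gene, had the largest rise of the receptor genes in the fit without offsets and kept its call with them. It stood at 1.11 RPKM in female A and 2.07 RPKM in male A, against 0.309 RPKM in male B and 0.257 RPKM in male C. The pairs did not overlap (log2 fold change 2.37, SE 0.340, edgeR adjusted p = 0.00125), and the value with the offsets was 1.54 (SE 0.314, edgeR adjusted p = 0.00712). The other gene called higher in both fits was the kainate receptor gene Grik2, which stood at 3.34 and 3.42 RPKM in the P2-mouse pair, against 0.901 and 0.772 RPKM in the embryo pair. Its log2 fold change was 1.90 (SE 0.174, edgeR adjusted p = 0.000246) and 0.79 with the offsets (SE 0.162, edgeR adjusted p = 0.00729), and with the offsets and sex together it was not called (0.78, SE 0.237, edgeR adjusted p = 0.0760). Both embryo libraries were under both P2-mouse libraries for each gene.

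Grik2 was the kainate receptor gene called in the fit without offsets, out of 5 tested. Without Grik1, it made up 42.6% and 48.6% of the kainate receptor RPKM in the P2-mouse pair, against 18.0% and 13.4% in the embryo pair. Grik1 itself had a log2 fold change of -0.18 (SE 0.0757, edgeR adjusted p = 0.0943) and was called lower at -0.31 with the offsets (SE 0.0748, edgeR adjusted p = 0.0149), while its RPKM spanned 373 to 399.8 over the libraries. It held 97.9% and 98.2% of the kainate receptor RPKM in the P2-mouse pair and 98.7% and 98.6% in the embryo pair. Grik4 and Grik5 encode the high-affinity kainate subunits. Grik4 stood at 3.38 and 2.67 RPKM against 3.17 and 3.81 RPKM, and Grik5 at 0.697 and 0.615 RPKM against 0.736 and 1.026 RPKM, and neither was called. Grik3 stood at 0.433 and 0.327 RPKM against 0.202 and 0.157 RPKM and missed the threshold (log2 fold change 0.98, edgeR adjusted p = 0.0617).

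**Figure D4:**
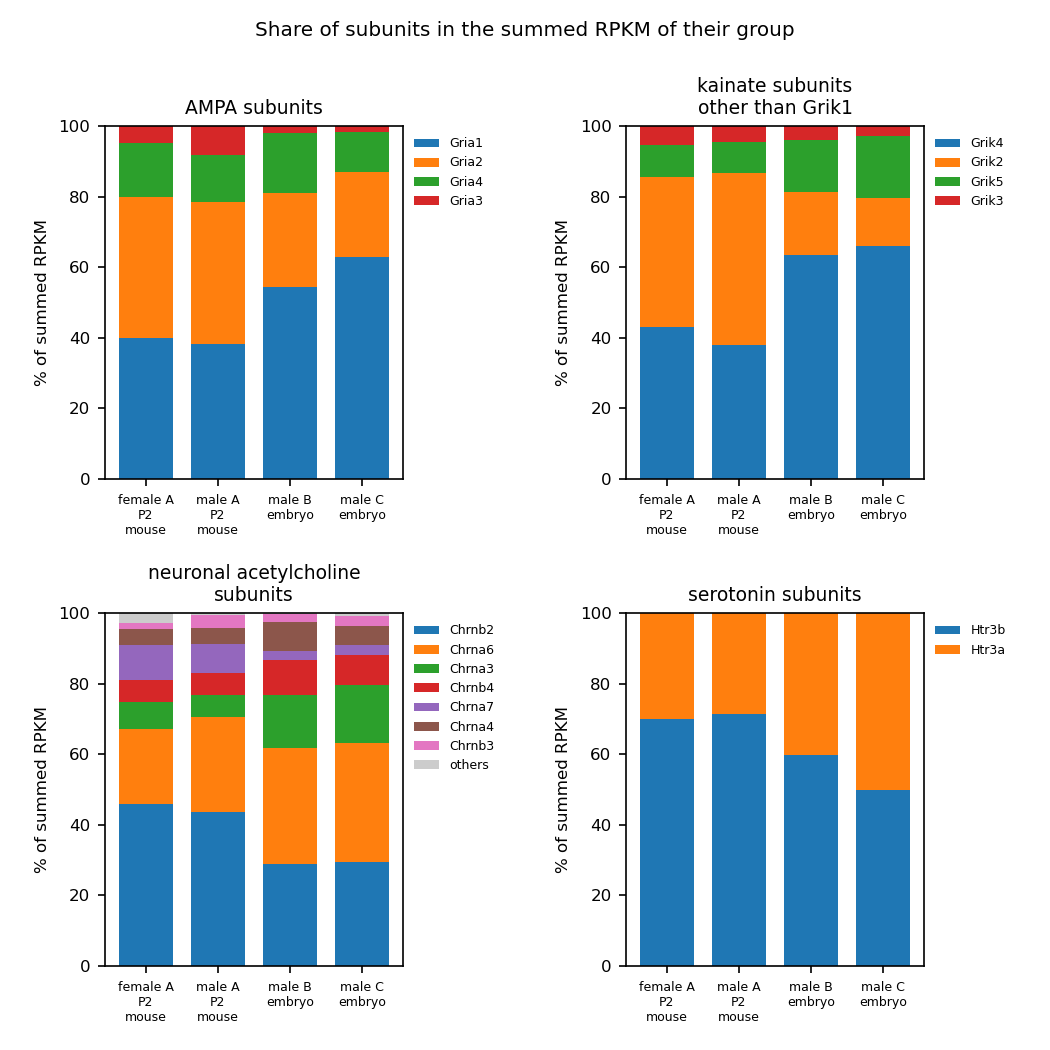
Share of subunit genes in the summed RPKM of their group, in percent, with 1 stacked bar per library, for the AMPA, kainate (without Grik1), neuronal acetylcholine and serotonin receptor genes. Gria2 makes up 39.7% and 40.1% of the AMPA receptor RPKM in the P2-mouse pair, against 26.8% and 24.0% in the embryo pair, and Htr3a 29.9% and 28.6% of the serotonin receptor RPKM, against 40.1% and 50.2%.

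The NMDA receptor genes were low. Grin3a, a subunit that lowers calcium entry through the receptor, stood at 2.25 and 1.86 RPKM in the P2-mouse pair, against 1.57 and 1.46 RPKM in the embryo pair. Grin1, the subunit every NMDA receptor needs, stood at 1.07 and 0.866 RPKM against 0.982 and 2.46 RPKM, with male C apart from the other 3 libraries. Of its exon bases 13.5% are shared with the antisense gene Grin1os, so its counts are uncertain. Of the glutamate-binding subunit genes, Grin2d had 1 and 3 counts in the P2-mouse pair, against 16 and 18 counts in the embryo pair. The ratio of its summed counts, scaled to depth, was 0.123 (exact 95% interval 0.0317 to 0.345, counting error only), and it was called lower (log2 fold change -3.00, SE 0.801, edgeR adjusted p = 0.0190). Its exons share 9.66% of their bases with a gene on the opposite strand, and DESeq2 did not call it. Grin2a was at 0 counts, Grin2b and Grin2c had at most 2 counts in any library, and Grin3b reached at most 0.0853 RPKM.

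The delta receptor genes encode relatives of the other subunits that are known for binding cerebellins at synapses. Grid1 stood at 0.111 and 0.226 RPKM against 0.391 and 0.283 RPKM and was not called (log2 fold change -1.14, edgeR adjusted p = 0.103).

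The pair comparison has 2 residual degrees of freedom, and leaving out a library moved the count of calls. Without female A 6 of 43 receptor genes tested were called higher and 6 lower, against 13.6% and 11.3% of all genes tested. Without male A the counts were again 6 and 6 of 43, against 11.8% and 10.3%. Without male B 11 of 44 were called higher and 14 lower, against 21.4% and 20% of all genes. Without male C 8 of 44 were called higher and 11 lower, against 22.1% and 20.1%. All 18 calls were kept without male B, and the call on Gabra3 was lost without any other library, at log2 fold changes of 0.84 without female A, 0.63 without male A and 0.44 without male C. Gabrb2 (2.29 and 1.69), Chrne (-2.41 and -3.10) and Grin2d (-2.11 and -4.26) lost their calls without female A and without male A, in that order. Gabrg1 (-0.95) and Gabrg3 (1.00) lost theirs without female A, and Gabra2 (-0.53) without male A. Among the 12 most abundant receptor genes, Grik1 (-0.22) and Chrnb2 (-0.42) were called lower without male B, and Htr3b (-0.42) and Glrb (-0.60) without male C. With sex as a term in the fit 6 receptor genes were called higher and 4 lower, against 13.3% and 10.4% of all genes tested, and 10 of the 18 calls were kept. Among these were Gria2, Gria3 and Grik2 (higher) and Chrna3, Chrna4, Gabra2 and Htr3a (lower). The 8 lost calls kept their sign. They were those on Chrnb4 and Chrna6, given above, on Gabrg1 (-0.96), Gabrg3 (0.99), Gabrb2 (2.29) and Gabra3 (0.84), with edgeR adjusted p of 0.0816, 0.0740, 0.0665 and 0.130 in that order, and on Chrne (-2.42) and Grin2d (-2.12), with 0.117 and 0.158. With sex and the offsets together 1 receptor gene was called higher and 5 lower, against 5.01% and 7.71% of all genes tested.

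Between female A and the 3 males, 0 of the 45 receptor genes tested were called by edgeR, against 0% of the 16708 genes tested, of which 129 had an unadjusted p under 0.05. Among the receptor genes 1 had an unadjusted p under 0.05, Gabrg1 (log2 fold change -1.46, SE 0.587, edgeR adjusted p = 0.951). DESeq2 and limma-voom also called 0 receptor genes (unadjusted p under 0.05 in 2 genes by DESeq2 and in 0 by limma-voom). With the pool description as a term, 0 receptor genes were called. With 1 female the spread comes from the males alone, among which the pool descriptions differ, so these SEs are wide. Within the P2-mouse pair Grik1 stood at 373 RPKM in female A and 377 RPKM in male A, and Gria3, on the X chromosome, at 1.11 RPKM in female A and 2.07 RPKM in male A. The 6 X-linked receptor genes were Gabra3, Gabre, Gabrq, Glra2, Glra4 and Gria3. Without male A, the contrast of sex is the same as that of the pool descriptions, and 6 receptor genes were then called higher and 6 lower, the same counts against the same background as given above.

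Genes that assist or surround these receptors were read from the same fit between the pairs, in which 22.3% of all genes tested were called higher and 20% lower, or 12.8% and 20.3% with the offsets. Of 11 AMPA and kainate auxiliary subunit genes tested, 2 were called higher and 2 lower. Neto2, an auxiliary subunit of kainate receptors, stood at 34.0 RPKM in female A and 36.9 RPKM in male A, against 12.1 RPKM in male B and 11.5 RPKM in male C. Its log2 fold change was 1.48 (SE 0.0997, edgeR adjusted p = 0.000136), and it was still called at 0.47 with the offsets (edgeR adjusted p = 0.00512). The AMPA receptor auxiliary genes Cacng5 (2.79 and 2.01 RPKM against 5.58 and 6.17 RPKM) and Cacng3 (2.32 and 1.82 RPKM against 5.96 and 4.57 RPKM) were lower in both fits, at log2 fold changes of -1.40 and -1.45 without the offsets. Shisa6 was higher at 0.77 without the offsets and was not called with them.

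Of 9 acetylcholine receptor accessory genes, 1 was called higher and 4 lower. Lynx1, whose product binds and damps nicotinic receptors, stood at 2.54 and 2.25 RPKM in the P2-mouse pair, against 13.8 and 10.4 RPKM in the embryo pair (log2 fold change -2.44, SE 0.180, edgeR adjusted p = 0.000141). The assembly chaperone gene Tmem35a stood at 35.1 and 32.8 RPKM against 47.0 and 51.5 RPKM (log2 fold change -0.65, edgeR adjusted p = 0.00245). Both stayed lower with the offsets, as did Ly6e (log2 fold change -1.21 without them), whereas Ly6h (-0.70) did not. Ric3, another chaperone of nicotinic receptors, was higher at 0.77 without the offsets and was not called with them. Rapsn, which clusters muscle receptors, stood at 17.1 and 13.7 RPKM against 18.2 and 18.5 RPKM and was not called. Ache, the enzyme that breaks down acetylcholine, stood at 4.13 and 3.10 RPKM against 6.52 and 9.89 RPKM (log2 fold change -1.29, edgeR adjusted p = 0.00339).

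Of 14 genes that cluster or traffic GABA and glycine receptors, 2 were called higher and 4 lower. Gabarap (237 and 255 RPKM against 305 and 295 RPKM) and Gabarapl1 (80.1 and 75.01 RPKM against 113 and 122 RPKM) were the most abundant of them and were lower at log2 fold changes of -0.40 and -0.71, the first without a call once the offsets were in. Lhfpl4, which carries gamma-containing receptors to synapses, and Trak1 were lower at -0.50 and -0.39 and were not called with the offsets. Trak2 was higher at 0.85 and remained so with the offsets (0.45, edgeR adjusted p = 0.0185), and Ubqln1 was higher at 0.37 without them. The chloride importer gene Slc12a2 stood at 23.1 and 23.4 RPKM in the P2-mouse pair, against 12.4 and 9.12 RPKM in the embryo pair. Its log2 fold change was 1.00 (SE 0.147, edgeR adjusted p = 0.00142) and 0.34 with the offsets, where it was not called. The exporter gene Slc12a5, which lowers chloride in mature central neurons, had at most 0.123 RPKM.

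Of 12 metabotropic receptor genes tested 0 were called higher and 3 lower. The GABA-B receptor genes led them and did not pass the test, with Gabbr1 at 15.6 and 14.9 RPKM against 14.6 and 14.7 RPKM and Gabbr2 at 14.5 and 12.6 RPKM against 14.7 and 13.9 RPKM. The muscarinic receptor genes Chrm1 (0.698 and 0.9397 RPKM against 2.15 and 1.74 RPKM) and Chrm2 (1.76 and 1.65 RPKM against 3.12 and 2.12 RPKM) were lower in both fits, at log2 fold changes of -1.37 and -0.73 without the offsets, as was Grm4 at -2.76. Of 18 postsynaptic scaffold genes 2 were called higher (Homer1 and Dlg1, at 1.21 and 1.30) and 2 lower (Dlg4 and Dlg2, at -0.90 and -2.26), and with the offsets 0 were higher and 5 lower. Homer2 and Grip1, the most abundant of them, stood at 6.32 and 7.65 RPKM against 6.22 and 6.97 RPKM and at 5.63 and 5.47 RPKM against 5.23 and 5.51 RPKM.

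Of 18 genes of transmitter synthesis and transport tested, 3 were called higher and 3 lower, and with the offsets 0 were higher and 6 lower. Slc17a6, a vesicular glutamate transporter gene, stood at 132 and 129 RPKM in the P2-mouse pair, against 104 and 97.2 RPKM in the embryo pair. Its direction turned with the offsets, from a log2 fold change of 0.26 (edgeR adjusted p = 0.0339) to -0.26 (edgeR adjusted p = 0.0430). Abat, which breaks down GABA, stood at 5.78 and 6.32 RPKM against 6.76 and 7.33 RPKM and was called lower with the offsets alone. The other vesicular glutamate transporter genes were low. Slc17a8 stood at 0.778 and 1.06 RPKM against 0.439 and 0.272 RPKM (called higher without the offsets). Slc17a7 stood at 0 and 0.137 RPKM against 0.495 and 0.424 RPKM (called lower without the offsets). Gad1, which makes GABA, was low at 0.382 and 0.444 RPKM against 0.820 and 0.668 RPKM and was called lower in both fits (log2 fold change -0.97 without the offsets). Gad2, Slc32a1, Slc6a5 and Chat, genes of GABA, glycine and acetylcholine neurons, were at 0 counts in every library.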

How the data were processed

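RNA was measured in 4 libraries. Per the labels' protocols, 10 ng of RNA from sorted EGFP-positive cells went into a SMARTer Ultra Low Input amplification. Per the submitters' processing notes, the deposited counts per gene involved featureCounts 1.4.5, Subread and GRCm38.p2. Deposited CPM values are counts scaled to the library's gene total, and the deposited RPKM values are CPM per kilobase of the exon length listed in the files, both as recomputed here. Aligner, annotation release and strand setting were not given in the sources used here.

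Symbols came from GENCODE M21 (40254 of 41388 genes, 97.3%). Counts were tested with edgeR 4.0.16 (quasi-likelihood F test, TMM scaling, filterByExpr with a minimum count of 10 and a minimum total of 15) in R 4.3.3, with Benjamini-Hochberg adjustment over all genes at 0.05. An SE is the log2 fold change over the square root of F. The test was also run on simulated counts with the same dispersion for every gene and no trend with GC content or length. Those settings differ from the data, so that run does not show how accurate the calls are here. Offsets came from mgcv 1.9.3 smooths of log counts on GC content and transcript length per library. Alternatives used DESeq2 1.42.0 and limma 3.58.1 (voom), other scalings and filters, sex or pool description as a term, and fits without each library. Values per library are given for the 4 highest genes of each class, for each gene called and for its neighbours within 1000 kilobases. A few genes covered by this rule are not reported here. The receptor genes and the gene lists were chosen with earlier results of these data known. Each library is labelled as a pool from 1 animal, and the libraries carry no molecular identifiers. The pool labels do not say whether male B and male C came from different embryos, and the test treats them as separate. Of 50-base words of annotated transcripts, at most 3.02% of any receptor gene's were shared with another gene, except for Grin2a at 11.6%.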

Additional observations from a re-analysis of the deposited data

How the results depend on the processing

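Of the 18 receptor genes called between the pairs, all kept their call with relative log expression factors, without a count filter, with limma-voom and with robust empirical Bayes. DESeq2 kept 16 (not Gabra3 or Grin2d), a mean of at least 5 CPM kept the 15 it tested, sex as a term kept 10 and the offsets kept 11. The count of receptor genes called higher (9, against 22.3% of all genes) was 2 with the offsets (12.8%), 2 with offsets on the exon length of the files (12.7%) and 1 with the offsets and sex together (5.01%). The count called lower (9, against 20% of all genes) was 4 with sex as a term (10.4%) and 5 with the offsets and sex together (7.71%). Leaving out a library gave 6 to 11 called higher and 6 to 14 lower between the pairs, and 0 to 6 in each direction for the female against the males. The last 2 offset fits were added after the data were seen.

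The log2 fold change of Gria2 was -0.034 (SE 0.119) with the offsets, 0.15 (SE 0.118, edgeR adjusted p = 0.364) with offsets on exon length in the files and 0.01 (SE 0.166, edgeR adjusted p = 0.969) with the offsets and sex together, and it was called in none of these 3 fits. The cause was not tested, though the offsets by construction remove change that follows GC content or length across all genes.

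The mean class shares of summed RPKM, 13.9% GABA, 75.8% glutamate, 5.80% serotonin, 3.58% acetylcholine and 0.884% glycine, became 18.1% GABA, 73.4% glutamate and 3.76% serotonin on CPM, and 73.4% glutamate and 1.06% glycine per kilobase of the longest transcript. Without Grik1, a choice made after the data were seen, they were 46.7% GABA, 19.6% serotonin, 18.6% glutamate, 12.1% acetylcholine and 2.98% glycine. No paired analysis was possible because the groups compared share fewer than 2 replicate letters. Genes with a few counts, such as Chrne and Grin2d, are limited by depth.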
